A study of Rattus norvegicus with 15 samples.

Results

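The liver disposes of ammonia through the urea cycle, and the transcripts of 9 genes that carry it out were followed here in rat livers with and without cirrhosis. The genes were chosen by function, with earlier results of these data known. They are the mitochondrial enzymes Nags, Cps1 and Otc, the cytosolic enzymes Ass1, Asl and Arg1, the mitochondrial carriers Slc25a15 and Slc25a13, and the glutaminase Gls2. All 9 were among the 32623 genes of the count table and among the 14417 genes with enough counts to be tested. In the count table, made on rn6, Arg1 lies on chromosome 1, Ass1 on 3, Slc25a13 on 4, Gls2 on 7, Cps1 on 9, Nags on 10, Asl on 12, Slc25a15 on 16 and Otc on X.

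Periportal hepatocytes release ammonia from glutamine with Gls2 and fix it as carbamoyl phosphate with Cps1, which works only in the presence of N-acetylglutamate, the product of Nags. Otc joins carbamoyl phosphate to ornithine, which enters the mitochondrion in exchange for citrulline through Slc25a15. Ass1 and Asl turn citrulline and aspartate into arginine, with the aspartate exported by Slc25a13 (citrin), and Arg1 splits arginine into urea and ornithine. Ammonia that escapes is captured as glutamine by Glul around the central vein, and failure of these routes in cirrhosis is the background of hyperammonaemia.

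Livers came from age-matched male Wistar rats. The control group (n = 4) received no treatment, the cirrhosis group (n = 5) inhaled carbon tetrachloride (CCl4) for 12 weeks with phenobarbital at 0.35 g/L in the drinking water, and the cirrhosis & eplerenone group (n = 5) had the same exposure plus the mineralocorticoid receptor antagonist eplerenone at 100 mg/kg by mouth from week 8 on. Both CCl4 groups therefore shared phenobarbital, which the controls did not receive, and their livers were taken 7 to 10 days after the last CCl4 dose. The study picked animals for sequencing by how well cirrhosis induction or eplerenone treatment had worked. It also excluded a control that its principal component analysis set apart from the 4 others. Control replicate 1 is in the labels but not in the count table, so it was not analysed here. Whether that sample is the control the study excluded is not stated. The spread of controls given below is that of 4 livers. Poly(A) RNA from whole liver was sequenced, so fewer hepatocytes and less RNA per hepatocyte cannot be told apart.

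The 14 libraries held 16157491 to 21574767 counted reads, and the 9 genes together took 0.381 to 1.08% of them. Levels are given as FPM, fragments per 1000000 on library sizes scaled by the trimmed mean of M values (TMM). A gene passed the test where edgeR's quasi-likelihood adjusted p, by Benjamini-Hochberg over all 14417 genes, was below 0.05. On the first principal component of all livers, cirrhosis replicate 5 (13.03) lay apart from the other 4 cirrhosis livers (-47.7 to -38.0) on the side of the controls (44.3 to 50.6), and the cirrhosis & eplerenone livers spread from -42.6 to 26.8. Animal labels held a letter that went with the group and then a number, here called the label number. It was 15 or 20 in CCl4 rats, 13 in control replicate 2 and 16 in control replicates 3 to 5. What this number stands for is not given in the sources used here. It is carried through below because several of the 9 genes differed by it.

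The promoters of the 4 genes that differed most by label number among the CCl4 rats are shown first. Each window runs from 250 bases before to 50 bases after an annotated start, 5′ to 3′ on the strand of the gene, in the RefSeq annotation of the GRCr8 assembly, whereas the counts were made on rn6. The windows are chr7:1201629-1201928, chr12:32295658-32295957, chr3:35149480-35149779 and chr9:76063613-76063912, all on the plus strand. Gls2 has 2 annotated windows, of which the upstream one is given. Capitals mark matches, on either strand, to the TATA box letters TATAAA, the CCAAT box letters CCAAT, the core letters TGTTCT shared by response elements of the mineralocorticoid and glucocorticoid receptors, or the cAMP response element TGACGTCA.
Gls2: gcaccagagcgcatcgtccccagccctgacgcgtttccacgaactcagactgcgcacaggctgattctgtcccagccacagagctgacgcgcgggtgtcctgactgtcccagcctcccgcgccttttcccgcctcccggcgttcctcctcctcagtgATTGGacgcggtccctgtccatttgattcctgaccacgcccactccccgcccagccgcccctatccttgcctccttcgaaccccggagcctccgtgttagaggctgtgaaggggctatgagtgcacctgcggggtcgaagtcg
Asl: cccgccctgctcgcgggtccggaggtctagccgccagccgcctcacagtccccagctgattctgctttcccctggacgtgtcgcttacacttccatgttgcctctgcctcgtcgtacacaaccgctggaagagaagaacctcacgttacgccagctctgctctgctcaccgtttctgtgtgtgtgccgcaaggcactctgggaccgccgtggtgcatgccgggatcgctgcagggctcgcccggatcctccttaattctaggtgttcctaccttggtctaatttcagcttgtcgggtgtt
Ass1: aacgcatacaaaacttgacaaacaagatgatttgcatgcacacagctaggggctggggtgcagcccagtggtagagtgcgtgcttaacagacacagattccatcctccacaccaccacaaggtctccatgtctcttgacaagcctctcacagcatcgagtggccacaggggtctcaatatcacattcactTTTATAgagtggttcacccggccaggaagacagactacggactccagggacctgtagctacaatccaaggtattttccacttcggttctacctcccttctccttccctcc
Cps1: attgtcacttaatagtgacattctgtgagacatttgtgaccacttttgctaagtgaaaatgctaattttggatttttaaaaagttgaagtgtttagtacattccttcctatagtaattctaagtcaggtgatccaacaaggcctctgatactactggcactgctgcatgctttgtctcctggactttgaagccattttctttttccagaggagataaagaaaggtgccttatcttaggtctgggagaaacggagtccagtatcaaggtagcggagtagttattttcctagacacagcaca
In these 4 windows the letters of the CCAAT box occurred once, on the minus strand of Gls2, starting 93 bases upstream of the start, and those of the TATA box once, on the minus strand of Ass1, starting 60 bases upstream. The windows of Asl and Cps1 held none of the letters searched. Of the other members, Slc25a13 and Slc25a15 held the CCAAT letters once each, Otc and Nags held none, and Arg1 was named only. Over all 33469 promoter windows, 14.2% held TATAAA, 37.5% CCAAT, 20.7% TGTTCT and 1.83% TGACGTCA. Base composition ranged from 39.3% G and C in Cps1 to 66.3% in Slc25a13.

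In cirrhosis, the ornithine transcarbamylase transcript (Otc) was lower in every liver than in any control, and the citrin transcript (Slc25a13) was lower on average, while the other 7 genes did not pass the test. Thus 2 of 9 genes were called, both lower, against a background of 20.2% of all tested genes called in this comparison. That background depends on single livers, with 1365 genes called without control replicate 5 and 4612 without cirrhosis replicate 5, against 2906 in all. The median log2FC of the 9 genes was -0.57, beside -0.01 over all genes tested. Other lists read below were lower too. Their medians were -0.46 for ammonia and arginine handling, -0.47 for regulators, -0.41 for periportal, -0.78 for pericentral and -0.40 for hepatocyte genes. Those of cholangiocyte (2.96), stellate cell (2.52) and lymphocyte (1.16) markers were higher.

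**Figure D1:**
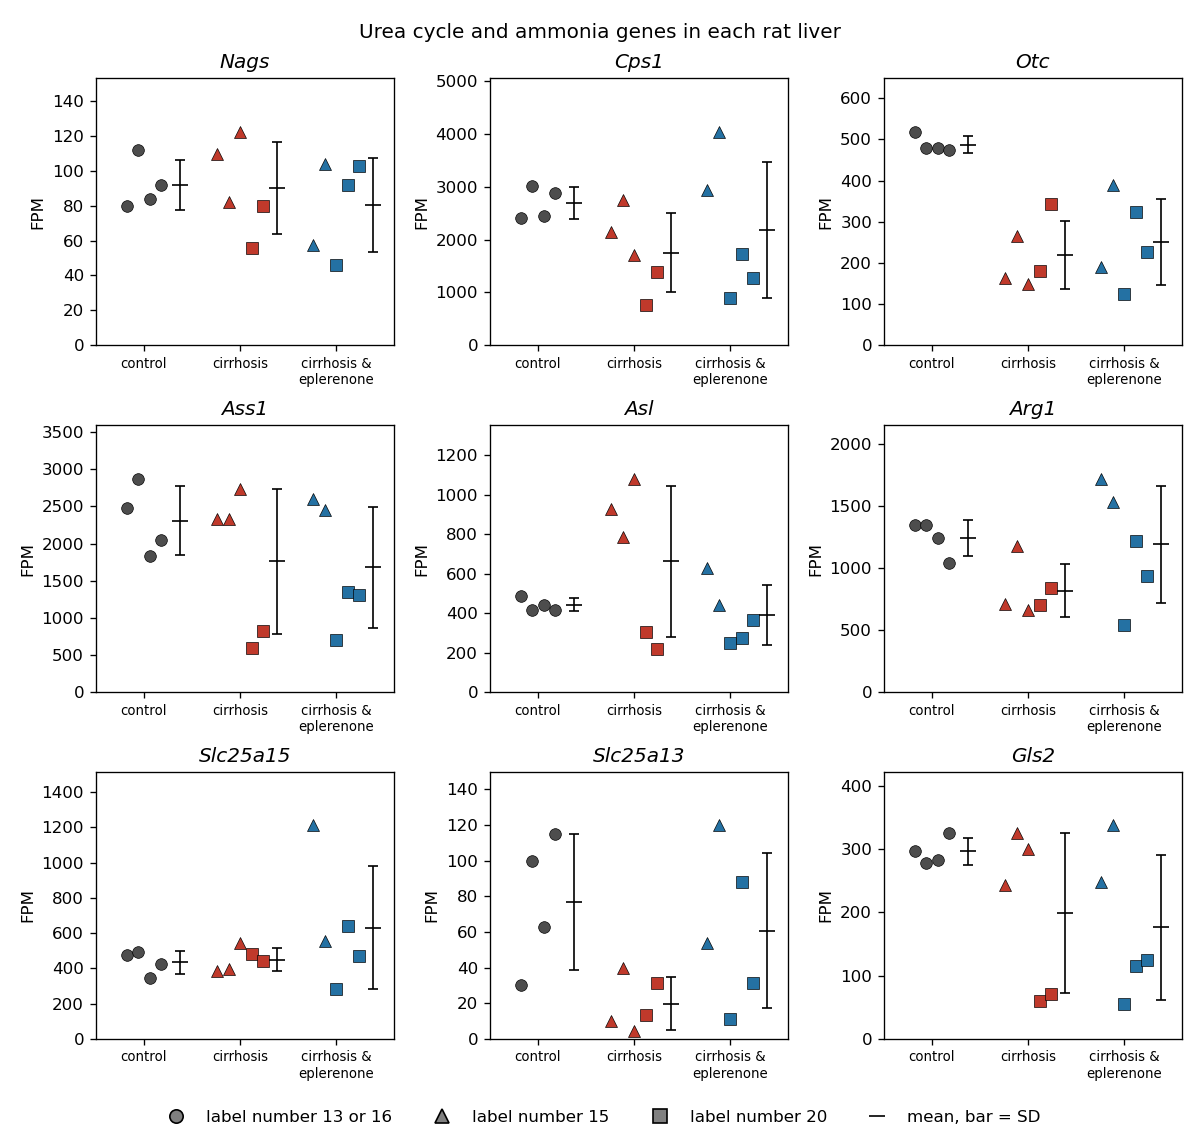
FPM (y axis, starting at 0) of the 9 genes in each of 14 rat livers by group (x axis). Marker shape gives the label number, and bars give mean and SD. Otc was below every control in all 10 CCl4 livers, whereas Gls2, Ass1 and Asl separated the triangles (15) from the squares (20) in both CCl4 groups.

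Otc, which makes citrulline, stood at 518, 479, 479 and 473 FPM in the control livers. In cirrhosis replicates 1 to 5 it stood at 164, 265, 148, 179 and 344 FPM. The highest cirrhotic liver lay under the lowest control, a separation that 20.2% of all tested genes showed in this comparison in either direction. The fitted difference was a log2FC of -1.15 (SE 0.31), with a 95% interval of -1.81 to -0.49 and an adjusted p of 0.0200 by edgeR's quasi-likelihood test. Without cirrhosis replicate 3 the adjusted p was 0.0501, and in the other 13 fits that left out 1 liver Otc passed.

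Slc25a13, the aspartate/glutamate carrier that supplies the aspartate for Ass1, was the most variable of the 9. Controls had 29.98, 99.9, 62.8 and 115 FPM, and cirrhosis replicates 1 to 5 had 10.2, 39.5, 4.64, 13.5 and 31.1 FPM. Control replicate 2 lay within the cirrhotic range, so the groups overlapped. The log2FC was -1.96 (SE 0.64, adjusted p = 0.0438 by edgeR's quasi-likelihood test). This call was kept in only 6 of 14 fits that left out 1 liver and was lost without cirrhosis replicate 1, 3 or 4, control replicate 3, 4 or 5, or cirrhosis & eplerenone replicate 1 or 4, with adjusted p up to 0.119.

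The enzymes that bring ammonia into the cycle did not pass. Cps1, the carbamoyl phosphate synthetase, averaged 2688 ± 308 FPM (SD, n = 4) in controls, and cirrhotic livers averaged 1751 ± 750 FPM (SD, n = 5), with a log2FC of -0.62 (SE 0.41, adjusted p = 0.276 by edgeR). Its activator enzyme Nags averaged 91.9 ± 14.3 FPM (SD, n = 4) in controls and 90.0 ± 26.3 FPM (SD, n = 5) in cirrhosis, with a 95% interval of the log2FC from -0.59 to 0.53. Gls2, which frees ammonia from glutamine, averaged 297 ± 21.3 FPM (SD, n = 4) in controls and 200 ± 127 FPM (SD, n = 5) in cirrhosis, a coefficient of variation of 7.18% against 63.4%.

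Downstream of citrulline none passed either, and the SD of Ass1 and Asl within cirrhosis exceeded the difference of their means. Ass1, the argininosuccinate synthetase, averaged 2310 ± 462 FPM (SD, n = 4) in controls and 1761 ± 978 FPM (SD, n = 5) in cirrhosis. Asl, the argininosuccinate lyase, was the only enzyme of the cycle with a higher mean in cirrhosis, at 663 ± 382 FPM (SD, n = 5) against 441 ± 33.2 FPM (SD, n = 4), with a log2FC of 0.59 (SE 0.41, adjusted p = 0.302 by edgeR). Arg1, which releases urea, averaged 1244 ± 146 FPM (SD, n = 4) in controls against 816 ± 212 FPM (SD, n = 5) in cirrhotic livers, with a log2FC of -0.61 (SE 0.29, adjusted p = 0.143 by edgeR). The ornithine carrier Slc25a15 had nearly equal means, 449 ± 65.9 FPM (SD, n = 5) and 434 ± 65.6 FPM (SD, n = 4), with an interval of the log2FC from -0.62 to 0.72.

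With eplerenone on top of CCl4, none of the 9 genes passed the test against cirrhosis, and each gene's values overlapped between the groups. Across all genes only 0.0139% were called here (2 genes), 2076 had an unadjusted p below 0.05, 0.964% did not overlap, and DESeq2 called 74 genes and again none of the 9. The largest difference was that of Slc25a13, which stood at 53.7, 120, 11.3, 87.8 and 31.3 FPM in cirrhosis & eplerenone replicates 1 to 5. Its mean of 60.8 FPM lay between those of cirrhosis (19.8) and control (76.9), with a log2FC against cirrhosis of 1.62 (SE 0.61) and an adjusted p of 0.315 by edgeR's quasi-likelihood test. The next 3 differences from cirrhosis had 95% intervals that held 0: Asl at -0.76 (-1.58 to 0.06), Arg1 at 0.54 (-0.05 to 1.13) and Slc25a15 at 0.49 (-0.14 to 1.12). For Cps1, Otc, Nags, Ass1 and Gls2 the log2FC lay between -0.18 and 0.32, with intervals as wide as -0.51 to 1.14 for Cps1 and -1.23 to 0.86 for Gls2.

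In cirrhosis & eplerenone, Otc stood at 191, 388, 124, 324 and 226 FPM, each below the lowest control. The log2FC was -0.96 (SE 0.31), and the adjusted p of 0.0851 by edgeR's quasi-likelihood test did not pass. DESeq2 gave an adjusted p of 0.0267, and without cirrhosis & eplerenone replicate 2 edgeR gave 0.0291. None of the 9 was called by edgeR, while 5.22% of all genes were called and 10.9% had ranges that did not overlap. Both comparisons with control share the same 4 control livers.

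**Figure D2:**
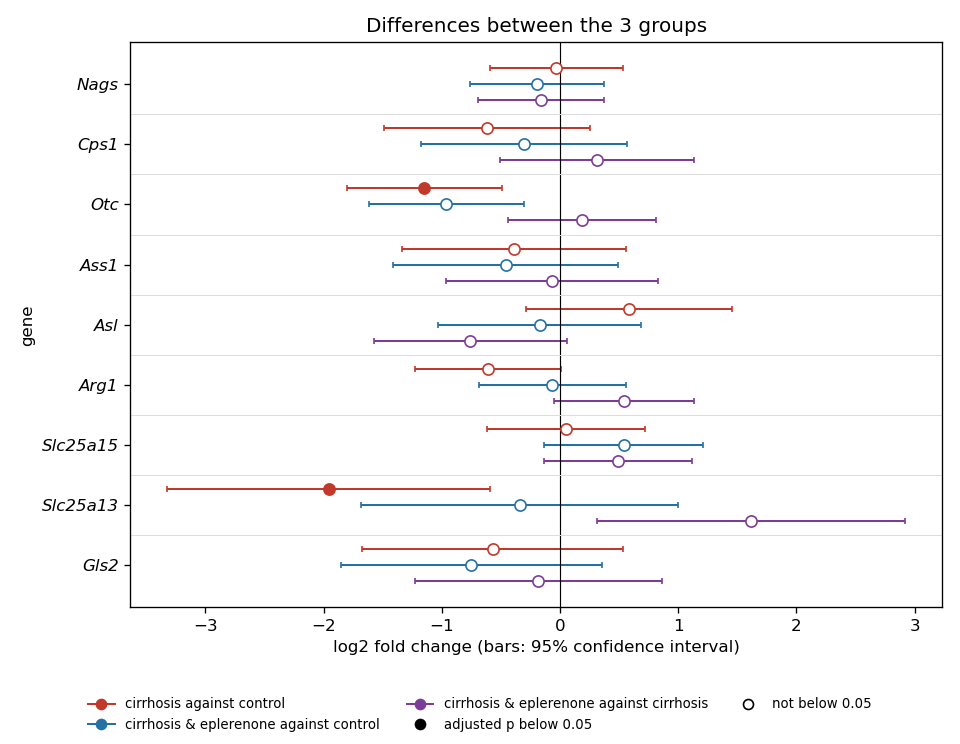
Log2 fold changes (x axis) of the 9 genes (y axis) in the 3 comparisons, with bars for the 95% confidence interval and filled points for adjusted p below 0.05. Only Otc (-1.15) and Slc25a13 (-1.96) in cirrhosis against control are filled.

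Several of the 9 genes also differed between the CCl4 rats themselves. Gls2, Asl, Ass1 and Cps1 were lower in rats of label number 20 than in those of label number 15. For each of these genes every rat of 20 lay below every rat of 15 within its own CCl4 group. Such a separation, in either direction, was shown by 22.1% of all tested genes within cirrhosis and 31.5% within cirrhosis & eplerenone. Of the cirrhosis rats, replicates 1 to 3 carried label number 15, as did replicates 1 and 2 of those given eplerenone, and the other 5 rats carried 20. The comparison was added after the values had been seen, and it was made with each CCl4 group split by label number in a model of 5 groups. There 4 of 9 genes were called, all lower in 20, against a background of 0.569% of all tested genes (82 genes). The split was taken up because several of the 9 differed by it. Their excess over that background was therefore built into the choice. For the same reason the adjusted p values and ranks by label number below describe these genes and are no independent support. Fitted on the 10 CCl4 rats alone, with treatment and label number as terms, only Gls2 kept its call, and 11 genes were called in all. The label number is not spread over controls, so in cirrhosis against control it cannot be told apart from the treatment.

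Gls2 showed the sharpest separation. The 5 rats of label number 15 had 243, 325, 301, 248 and 338 FPM, and the 5 of label number 20 had 59.9, 70.2, 54.6, 115 and 125 FPM. The ranges did not overlap, and the control livers (279 to 326 FPM) fell within the range of the first set. The log2FC was -1.86 (SE 0.22) with an adjusted p of 0.0014 in the model of 5 groups and 0.0345 in the 10 CCl4 rats alone, both by edgeR's quasi-likelihood test. By its p value Gls2 ranked 9 of 14417 genes.

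Ass1 followed the same split, with 2324, 2327, 2736, 2599 and 2448 FPM in label number 15 and 596, 822, 695, 1349.73 and 1302 FPM in label number 20. Its control values, 1837 to 2876 FPM, lay above all 5 rats of label number 20. The log2FC was -1.49 (SE 0.23, adjusted p = 0.0099 by edgeR, and 0.0867 in the 10 CCl4 rats alone). Ranges that did not overlap were found for 1.73% of all tested genes, and for 3 of these 9.

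Asl, the third of them, had 925, 784, 1081, 628 and 442 FPM in label number 15 and 305, 218, 249, 275 and 365 FPM in label number 20. Here the controls (416 to 487 FPM) lay above all rats of label number 20 and overlapped only the lowest rat of label number 15, cirrhosis & eplerenone replicate 2. The log2FC was -1.34 (SE 0.19, adjusted p = 0.0053 by edgeR, and 0.136 in the 10 CCl4 rats alone). Cps1 had 2148, 2743, 1713, 2935 and 4039.96 FPM against 761, 1390.47, 903, 1735 and 1280.49 FPM, where cirrhosis replicate 3 lay just under the highest rat of label number 20. Its log2FC was -1.22 (SE 0.25) and its adjusted p 0.0489 by edgeR's quasi-likelihood test. This was kept in only 2 of 14 fits that left out 1 liver and was 0.177 in the 10 CCl4 rats alone, whereas Gls2, Ass1 and Asl passed in all 14.

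The other 5 genes did not pass by label number. Otc, called in cirrhosis, averaged 231 ± 98.6 FPM (SD, n = 5) in label number 15 and 240 ± 93.6 FPM (SD, n = 5) in label number 20, with a log2FC of 0.04 and an interval from -0.59 to 0.67. For Slc25a13 the log2FC was -0.35, for Nags -0.32, for Arg1 -0.50 and for Slc25a15 -0.43, and each of their ranges overlapped. The 9 genes together took 0.699 to 1.08% of counted reads in label number 15 and 0.381 to 0.562% in label number 20, a share that does not depend on the TMM scaling. This share includes Gls2, Asl, Ass1 and Cps1, which differed by label number, and so is no independent support for a difference of the other genes.

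**Figure D3:**
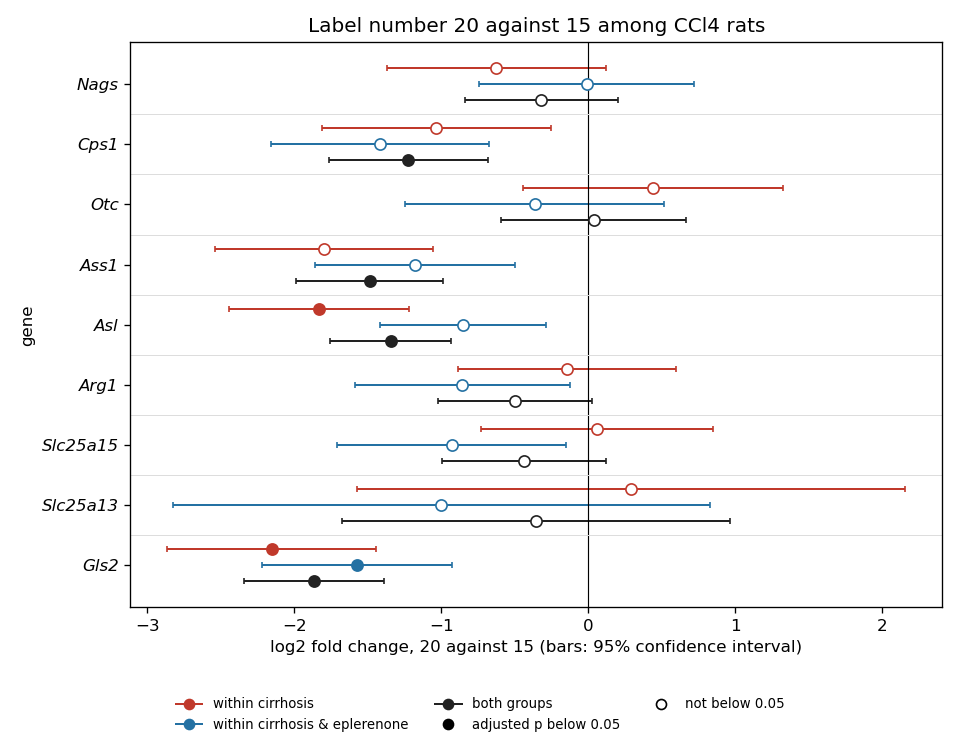
Log2 fold changes (x axis) of label number 20 against 15 for the 9 genes (y axis), within cirrhosis, within cirrhosis & eplerenone and over both, with bars for the 95% confidence interval and filled points for adjusted p below 0.05. Gls2 is filled in all 3 and Otc lies near 0 over both groups (0.04).

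Within cirrhosis alone, 0.0763% of all genes were called by label number, among them Gls2 (log2FC -2.16, adjusted p = 0.0261 by edgeR) and Asl (-1.83, adjusted p = 0.0273 by edgeR). Within cirrhosis & eplerenone 0.388% were called, with Gls2 (-1.57, adjusted p = 0.0405 by edgeR) the only one of the 9. Whether the difference itself depended on eplerenone was tested as an interaction, in which 0.00694% of all genes and none of the 9 were called. The closest was Asl, whose difference by label number was smaller with eplerenone by 0.98 log2 units (SE 0.38, adjusted p = 0.244 by edgeR). These fits rest on 2 or 3 rats a side.

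Set against control, the split changed which genes were called. In cirrhosis rats of label number 15, where 29.0% of all genes were called, Asl was higher at 1.08 (SE 0.22, adjusted p = 0.0047 by edgeR) and Otc lower at -1.34 (SE 0.36, adjusted p = 0.0160 by edgeR), while Gls2 and Ass1 stood at -0.03 and 0.09. In cirrhosis rats of label number 20, with 6.69% of all genes called, Gls2 (-2.19), Ass1 (-1.70) and Cps1 (-1.32) were lower, with adjusted p of 0.0025, 0.0103 and 0.0410 by edgeR. Otc stood at -0.90 there, with an adjusted p of 0.214 by edgeR. In cirrhosis & eplerenone rats of label number 15 none of the 9 was called against a background of 1.37%, and the furthest was Slc25a15 at 1.02 (SE 0.34, adjusted p = 0.186 by edgeR), with 1212 and 555 FPM in the 2 rats. In those of label number 20, with 9.90% of all genes called, Gls2 (-1.59), Ass1 (-1.05) and Cps1 (-1.04) were lower, with adjusted p of 0.0041, 0.0295 and 0.0437 by edgeR.

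**Figure D4:**
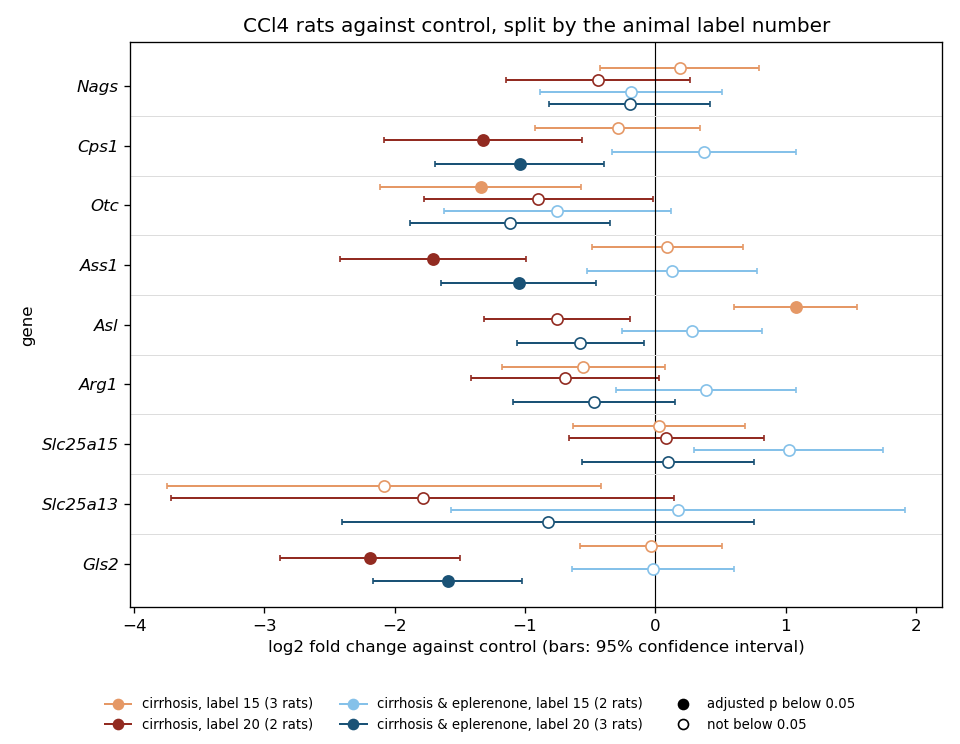
Log2 fold changes against control (x axis) of the 9 genes (y axis) for the 4 sets made by CCl4 group and label number, with bars for the 95% confidence interval and filled points for adjusted p below 0.05. Gls2, Ass1 and Cps1 are filled in both sets of label number 20 and in neither set of label number 15, and Otc lies left of 0 in all 4 sets.

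Eplerenone was also compared within each label number, since the groups held 3 and 2 rats of label number 15 and 2 and 3 of label number 20. Within 15, where 9.38% of all genes were called, none of the 9 passed. Slc25a13 (log2FC 2.25), Slc25a15 (1.00), Arg1 (0.94) and Cps1 (0.66) lay higher in both eplerenone rats than in any of the 3 cirrhosis rats, and Asl (-0.80) lay under all 3, with adjusted p between 0.0713 for Asl and 0.199 for Cps1 by edgeR. With so few rats 48.8% of all tested genes did not overlap here, so 5 of 9 is near the background. Within 20, 0% of all genes were called by edgeR's quasi-likelihood test and 256 had an unadjusted p below 0.05, and all 9 genes overlapped, where 10.0% of all tested genes did not. There the log2FC of Slc25a13 was 0.96, of Slc25a15 0.01, of Arg1 0.22, of Cps1 0.28 and of Asl 0.18.

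Other genes that supply or consume ammonia, ornithine and arginine were read from a list. Of 24 listed genes of ammonia and arginine handling, 23 were tested, with a median log2FC of -0.46 in cirrhosis. There 3 passed as higher and 1 as lower, near the background of 20.2% of all tested genes called. Those higher were Aldh18a1 (1.91), which starts proline and ornithine synthesis, the ammonia channel Rhbg (1.68) and Odc1 (1.12), which turns ornithine into putrescine. Aqp9, a channel for glycerol and urea, was lower (-0.85). Rhbg was also higher in cirrhosis & eplerenone than in control (2.15), where 5.22% of all genes were called. None of the 23 passed between the CCl4 groups. Within label number 15 (2 rats against 3), 3 of the 23 were called higher with eplerenone, where 9.38% of all genes were called. Within label number 20 none was. By label number the transaminases Gpt (-2.24) and Got1 (-1.64) were called, both lower in 20, where 0.569% of all tested genes were called. The ranges of Gpt and Got1 did not overlap, as for 1.73% of all tested genes.

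Glul, the glutamine synthetase of pericentral hepatocytes, averaged 131 FPM in cirrhosis, 225 FPM in control and 281 FPM in cirrhosis & eplerenone. In the latter it ranged from 118 to 570 FPM, and its log2FC against cirrhosis was 1.10 with an adjusted p of 0.312 by edgeR. Oat, which shares ornithine with Otc, stood at 12.6 to 165 FPM in cirrhosis and at 273 to 387 FPM in control, with a log2FC of -1.72 and an adjusted p of 0.0881 by edgeR that did not pass. Car5a, the mitochondrial carbonic anhydrase that supplies bicarbonate to Cps1, stood at 14.3 to 31.9 FPM in cirrhosis and at 33.8 to 65.6 FPM in control (-0.83, adjusted p = 0.105 by edgeR). Glud1, the glutamate dehydrogenase, stood at a log2FC of -0.56 and did not pass. Arg2, the extrahepatic arginase, was too low to test, at 0.610 FPM or less in every liver.

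Among 11 listed regulators of liver gene expression, 2 passed in cirrhosis against control, near the background of 20.2% of all tested genes. These were Foxa2 (-1.33) and Hnf4a (-0.81), transcription factors of hepatocytes, both lower. No regulator passed in any of the other comparisons between the 3 groups or over both CCl4 groups by label number. Of 10 periportal genes, Hal, which degrades histidine (-1.60), Cyp2f4 (-1.02) and Igf1 (-0.93) were lower and Aldh1b1 (1.51) was higher in cirrhosis. Cyp2f4 was lower in cirrhosis & eplerenone as well (-1.45). Of 9 pericentral genes tested, Rhbg and Lect2 (0.95) were higher and Cyp1a2 (-2.42) was lower. The background for both lists in cirrhosis against control was 20.2% of all tested genes. Within label number 15 (2 rats against 3), 4 of the 9 pericentral genes were called higher with eplerenone, where 9.38% of all genes were called. There 1 periportal gene was called lower and 1 regulator higher. Within label number 20 no gene of these lists was called, as for all genes. The pericentral median log2FC with eplerenone was 1.67 within 15 and -0.07 within 20, where 5 of the 9 were negative. Between the CCl4 groups as a whole no pericentral gene was called. The pericentral and ammonia lists share Glul, Slc1a2, Rhbg and Oat. By label number none of the 10 periportal or 9 pericentral genes tested was called, though most were lower in 20. Their log2FC had a median of -0.53 (-2.67 to 0.64) in the periportal list and -0.39 (-1.62 to 0.08) in the pericentral list. The median of the 9 member genes was -0.50.

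Markers of other liver cells moved with cirrhosis, where 20.2% of all tested genes were called. All 6 cholangiocyte markers were called higher, with a summed level of 14.4 to 23.6 FPM in controls and 46.4 to 142 FPM in cirrhosis, as were 6 of 8 stellate cell and myofibroblast markers, from 145 to 247 FPM in controls to 266 to 568 FPM in cirrhosis. None of 11 hepatocyte markers was called, with a median log2FC of -0.40 and summed levels of 203295 to 230751 FPM in controls and 155595 to 217491 FPM in cirrhosis. Of the markers of the remaining cell types, 1 of 6 for macrophages was lower, 1 of 4 for endothelium higher and 1 lower, and 1 of 5 for lymphocytes higher. The part of these shifts in the lower Otc and Slc25a13 was not tested. Without cirrhosis replicate 5, an alternative chosen after seeing the data, 32.1% of all tested genes were called in cirrhosis, among them 2 of the 9 genes (Otc and Slc25a13, both lower), 3 of 11 hepatocyte markers and 4 of 11 regulators. By label number the hepatocyte markers had a median log2FC of -0.03 and none was called, with sums of 141480 to 194066 FPM in 15 and 121552 to 222175 FPM in 20. Of the 6 cholangiocyte markers 1 was called, Spp1 (osteopontin), which was lower in 20 at 6.42 FPM on average against 26.7 FPM (log2FC -1.95), while the summed level of all 6 ranged from 46.3 to 142 FPM in 15 and from 46.4 to 104 FPM in 20. No marker of stellate cells, macrophages, endothelium or lymphocytes was called by label number. Total counts were 17277282 to 21574767 in 15 and 16157491 to 18596271 in 20, and the part of Spp1 and of depth in the label difference was not tested.

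Over the 10 CCl4 rats the 9 genes did not vary as one. Ass1 and Gls2 were most alike (Pearson's r = 0.979 over 10 rats, on log2 of FPM plus 0.5), followed by Cps1 with Gls2 (0.881), Arg1 with Slc25a13 (0.872) and Cps1 with Ass1 (0.870). Otc was alike to Slc25a13 (0.830) and hardly to Ass1 (0.113) or Gls2 (0.172), and the lowest value was that of Asl with Slc25a13 (-0.322). All points share library scaling and the same animals, and these are descriptions. The mean standardised profile of the 9 genes was lowest in cirrhosis & eplerenone replicate 3 (-1.33) and cirrhosis replicate 4 (-0.92) and highest in cirrhosis & eplerenone replicate 2 (0.97). Among 12284 protein coding genes compared, those most like this profile were Hoga1 (r = 0.965), Cpn2 (0.951), Sardh (0.948), Lrp3 (0.946) and Uroc1 (0.944). Hoga1 is an aldolase of hydroxyproline breakdown, Sardh oxidises sarcosine, Uroc1 acts in histidine breakdown and Cpn2 is a subunit of carboxypeptidase N.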

How the data were processed

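Poly(A) RNA of rat liver was sequenced as paired 150 bp reads. The authors aligned the reads to rn6 with HISAT2 2.1.0 and counted them over exons with featureCounts 2.0.0, counting multi-mapping reads at each place, and took gene names from Ensembl archive 101. The deposited values are raw counts per gene. Strand use is not given in the sources used here, so reads of overlapping antisense genes cannot be told apart.

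Genes were kept by edgeR's filterByExpr (smallest count 10) and fitted in R 4.3.3 with edgeR 4.0.16 (TMM, quasi-likelihood, 3 groups, all 14 livers, Benjamini-Hochberg over 14417 genes), which was tested on simulated data first. SE is the absolute log2FC over the root of F. Alternatives were DESeq2 1.42.0, other scalings and filters, a replicate block, and each liver left out. The member genes and the lists were chosen with earlier results of these data known, and fits by label number were added after seeing the data. Named were all members, Glul, Glud1, Arg2, Oat and Car5a, at most 3 called genes per list, direction and comparison, by size of change (markers of other cells as counts and sums), and the 5 protein coding genes most like the members over the 10 CCl4 rats (at least 1 FPM). Car5a was read from the row of its older symbol, Ca5a. Ahsg, Col1a2 and Pecam1 were not analysed here, and 1 further gene named by the rule is not reported here. Promoter windows came from RefSeq (GRCr8).

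Replicates are single animals. The smallest chi-square per degree of freedom between replicates of a group was 23.2, so no library was counted double.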

Additional observations from a re-analysis of the deposited data

Results flagged for a closer look

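In control replicate 2, Otc stood at 518 FPM, apart from the other 3 controls (473 to 479 FPM): the gap took 0.861 of the range of the group. Of 27 gene and group pairs examined this was the only one so far apart, where chance gives about 1 in 20. Control replicate 2 was also the only control analysed of label number 13, while the other 3 carried 16. Without that liver Otc was still lower in cirrhosis (log2FC -1.12, adjusted p = 0.0451 by edgeR's quasi-likelihood test). Within cirrhosis, Asl and Gls2 were lower in rats of label number 20 (2 rats) than in those of 15 (3 rats). The log2FC was -1.83 for Asl (adjusted p = 0.0273) and -2.16 for Gls2 (adjusted p = 0.0261), both by edgeR's quasi-likelihood test. In this comparison 0.0763% of all tested genes were called. It is the difference by label number within cirrhosis given above, and the controls have no part in its size. The split was taken up because several of the genes followed here differed by it. These values are therefore no independent support.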

How the results depend on the processing

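Of the 9 genes, 2 were called in cirrhosis against control. With total counts, with the hepatocyte list as library size, with at least 10 counts in every sample, and under a replicate block 1 was called (Otc), and 0 to 2 with 1 liver left out, 0 being the count without cirrhosis replicate 3. Of 0 called in cirrhosis & eplerenone against control, DESeq2 called 1, and 0 to 1 were called with 1 liver left out. By label number 4 were called, 1 in the 10 CCl4 rats alone and 3 to 4 with 1 liver left out. The cause of these shifts was not tested. Replicate numbers did not pair the animals (correlations -0.333 to 0.187), and under the replicate block 1514, 155 and 0 genes in all were called in place of 2906, 753 and 2 in cirrhosis against control, cirrhosis & eplerenone against control and against cirrhosis. DESeq2 called 1523, 74 and 303 genes in the last 2 of these and by label number, where edgeR called 753, 2 and 82. The 10-count filter left 377 against control, and no filter gave 165 by label number. Against control with eplerenone, total counts called 1351 and the hepatocyte list 1408. With 1 liver left out, 1365 to 4612 genes were called in cirrhosis against control, at most 1861 without control replicate 3, 4 or 5 or cirrhosis replicate 1, 3 or 4 and most without cirrhosis replicate 5. With eplerenone against control 221 to 1277 were called, fewest without control replicates 5 (221), 3 (312), 4 (415) and 2 (417) and cirrhosis & eplerenone replicate 3 (378), and most without replicate 2 of that group. Between the CCl4 groups 0 to 26 were called, 26 without cirrhosis replicate 5, and 0 or 1 without cirrhosis replicate 1, 3 or 4 or cirrhosis & eplerenone replicate 1, 2 or 4. By label number 23 to 86 were called, fewest without cirrhosis & eplerenone replicates 2 (23), 1 (42) and 5 (44).

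Total counts put the median log2FC of all genes, near 0 with TMM, at 0.28 in cirrhosis against control, 0.32 with eplerenone and 0.11 by label number, and the hepatocyte list put it at 0.26 and 0.39 against control and 0.12 between the CCl4 groups. Signs that changed were those of differences that had not passed. With total counts Nags became 0.23 in cirrhosis and 0.063 with eplerenone, where Asl became 0.13 and Arg1 0.20. With the hepatocyte list these were 0.21, 0.095, 0.22 and 0.29, Cps1 became 0.047, Ass1 between the CCl4 groups 0.038, and Otc by label number -0.044. With at least 10 counts Nags was 0.026 in cirrhosis. Between the CCl4 groups Ass1 became 0.062 under the replicate block, and with label number as a term Ass1 became 0.34 and Gls2 0.30. Within label number 15 Ass1 was 0.035 and Gls2 0.016. Within 20 Nags was 0.24, Otc -0.22, Ass1 0.65, Asl 0.18 and Gls2 0.60.

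With 1 liver left out, Nags ranged from -0.16 to 0.11 and Slc25a15 from -0.050 to 0.13 in cirrhosis against control, and Arg1 from -0.22 to 0.12 in cirrhosis & eplerenone against control. Between the CCl4 groups Ass1 ranged from -0.30 to 0.14, Cps1 from -0.031 to 0.53, Gls2 from -0.56 to 0.063 and Otc from -0.026 to 0.40. By label number Otc ranged from -0.23 to 0.34 and Slc25a13 from -0.87 to 0.29. Slc25a13, with as few as 86 counts in a liver, was the least deeply counted of the 9 genes.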
